A study of Mus musculus with 4 samples.

Results

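Genes of the kinetochore, the kinesin motors and the mitotic kinases were followed in AML12 cells, an immortalised mouse hepatocyte line, after transfection with a Chrna4 plasmid or a GFP control plasmid. The members were taken by gene name alone. The rule took every listed gene named Cenp and a letter or Kif and a digit. It also took the Aurora kinases, Plk1, Plk4, Cdk1, Ccnb1, Ccnb2, the NDC80 complex, the spindle checkpoint, the chromosomal passenger complex, Cdc20, Top2a and Tpx2. This gave 72 of the 13422 listed genes. By role, 51 were counted as mitotic and 21 as outside mitosis. The latter are 19 kinesins, of which 12 carry cargo, and Cenpj and Cenpv, although CENP-V has also been placed at kinetochores and the spindle midzone. Kif2a, a microtubule-depolymerising kinesin that also works outside mitosis, was counted among the mitotic kinesins. Plk4, a kinase of centriole duplication, was counted as mitotic, whereas the centriole gene Cenpj was not. Another 5 genes bear such a name in GENCODE M21 but an older one in the deposited table, and so lay outside the name rule. They are Casc5 (Knl1), Apitd1 (Cenps), Mlf1ip (Cenpu), Stra13 (Cenpx) and 2510003E04Rik (Kif1bp). The kinesin gene Kifc1 lay outside the rule too, since no digit follows Kif in its name.

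The control group holds 2 libraries of cells given pCMV6-AC-GFP (Control 1 and Control 3), and the Chrna4 group 2 libraries of cells given PAV-TBG-P2A-GFP-Chrna4 (Chrna4 1 and Chrna4 2). All 4 come from AML12 cells of CD-1 origin (line MT42), grown with insulin, transferrin, selenium, dexamethasone and serum. Chrna4 codes for a subunit of nicotinic acetylcholine receptors, ion channels best known from neurons. The plasmids differ by name in more than the insert, so each difference below is one between a pair of transfections, and the sources used here do not say what share of cells took up a plasmid. Nothing in the labels says that replicates were separate cultures. The p-values therefore measure no more than the spread among these 4 libraries, shared in part across genes, and that spread may be technical.

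Listed genes received 31301396 to 32228360 reads per library. Chrna4 itself had 1 and 3 reads in the controls and 2678 and 2290 in the Chrna4 libraries. Of 10 hepatocyte markers 5 reached 1 CPM, among them Alb, Apob and Hnf4a. Ahsg, Cps1 and Fgb were not listed, and Serpina1a and Apoa1 stayed under 1 CPM. The summed level of 1453 to 1596 CPM overlapped between the groups and came mostly from Apob. Alb lay well below Apob, Hnf4a and the bile duct marker Krt19. Of 4 bile duct markers 3 reached 1 CPM. Their summed level was 677 and 724 CPM in the controls and 494 and 477 CPM in the Chrna4 libraries. The part of these bile duct markers in the results below was not tested. Macrophage markers summed to 3.77 to 5.27 CPM, neuronal markers to 7.23 to 12.8, and endothelial and fibroblast markers to at most 0.358 and 0.246 CPM.

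At the onset of mitosis CDK1 bound to a B-type cyclin starts chromosome condensation and spindle assembly, helped by the Aurora and Polo-like kinases. Each centromere, marked by the histone variant CENP-A, builds a kinetochore whose NDC80 complex grips microtubules, while mitotic kinesins push, pull and crosslink them. The spindle checkpoint holds CDC20 inactive until every kinetochore is attached, and CDC20 then turns on the anaphase-promoting complex. Transcripts of these genes are made mainly in G2 and mitosis, so in cultured cells their level is widely read as a sign of division. Hepatocytes in the adult liver seldom divide, whereas AML12 cells grow in culture.

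Mitotic promoters are known for a pair of short elements, the cell cycle genes homology region (CHR), bound by the MuvB complexes, and the CCAAT box, bound by NF-Y. The sequences below are the 200 bases just upstream of the RefSeq start in GRCm38.p6. They are shown because they set 4 well-known mitotic genes beside 3 of the 4 members whose level changed. The well-known genes were picked by hand, and each holds a CHR match. Ccnb1, Birc5, Nuf2 and Plk4, also not called, had none in the wider RefSeq window described below. Capitals mark TTTGAA or TTCGAA (CHR) and CCAAT on either strand, where the first and the last read TTCAAA and ATTGG on the opposite one, and 0 marked matches overlap another.
Cdk1 (chr10:69352913-69353112, minus strand, mitotic kinase): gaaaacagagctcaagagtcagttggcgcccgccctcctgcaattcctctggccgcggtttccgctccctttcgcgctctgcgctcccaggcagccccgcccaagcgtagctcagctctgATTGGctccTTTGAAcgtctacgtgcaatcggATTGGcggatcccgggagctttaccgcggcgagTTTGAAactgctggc
Ccnb2 (chr9:70421555-70421754, minus strand, B-type cyclin): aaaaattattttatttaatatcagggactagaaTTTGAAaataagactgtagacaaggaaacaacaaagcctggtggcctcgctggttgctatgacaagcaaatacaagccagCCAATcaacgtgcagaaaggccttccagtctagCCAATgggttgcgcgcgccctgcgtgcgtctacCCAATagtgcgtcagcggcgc
Cdc20 (chr4:118437344-118437543, minus strand, activator of the anaphase-promoting complex): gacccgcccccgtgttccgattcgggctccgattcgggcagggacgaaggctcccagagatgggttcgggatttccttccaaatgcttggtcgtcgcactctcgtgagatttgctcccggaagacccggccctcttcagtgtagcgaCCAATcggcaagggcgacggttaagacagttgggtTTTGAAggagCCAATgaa
Top2a (chr11:99024190-99024389, minus strand, member of highest CPM): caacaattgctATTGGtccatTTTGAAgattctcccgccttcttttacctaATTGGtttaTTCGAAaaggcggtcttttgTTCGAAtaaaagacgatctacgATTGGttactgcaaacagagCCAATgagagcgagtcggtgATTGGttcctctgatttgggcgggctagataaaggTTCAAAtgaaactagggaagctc
Cenpe (chr3:135212363-135212562, plus strand, mitotic member that rose): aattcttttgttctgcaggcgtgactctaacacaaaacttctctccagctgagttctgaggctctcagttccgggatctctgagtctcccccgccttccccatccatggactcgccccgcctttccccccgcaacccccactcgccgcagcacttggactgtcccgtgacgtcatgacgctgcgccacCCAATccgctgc
Mad2l1 (chr6:66535021-66535220, plus strand, mitotic member that fell): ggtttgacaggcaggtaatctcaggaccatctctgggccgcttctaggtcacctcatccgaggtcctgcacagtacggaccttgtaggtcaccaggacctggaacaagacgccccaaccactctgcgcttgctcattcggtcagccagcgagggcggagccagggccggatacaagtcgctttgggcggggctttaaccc
Kif12 (chr4:63172132-63172331, minus strand, kinesin outside mitosis that fell): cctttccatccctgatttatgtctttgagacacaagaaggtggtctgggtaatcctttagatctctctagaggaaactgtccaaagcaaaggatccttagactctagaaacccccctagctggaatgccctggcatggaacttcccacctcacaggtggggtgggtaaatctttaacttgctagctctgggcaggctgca
In the Cdk1 sequence the CHR matches began 71 and 15 bases before the start. Cdc20 had its match 18 bases before the start, and Top2a held 4 CHR and 5 CCAAT matches. In Ccnb2 the marked CHR match began 167 bases before the start, upstream of its 3 CCAAT boxes. A further CHR match of Ccnb2 began 4 bases after the start, outside the 200 bases shown. Cenpe had 1 CCAAT box 12 bases before the start and no CHR match, and the windows of Mad2l1 and Kif12 held neither motif. The absence of a match says only that these letters are not in the window. For Mad2l1 the RefSeq window ends upstream of the gene start in GENCODE, at 66535390, so the bases just before that start were not searched.

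Over the whole RefSeq window, from 250 bases before to 50 after the start, 63 of the 72 members had an entry. A CHR match was present in 29 of 50 promoters of mitotic members (58.0%), against 1 of 19 promoters of members outside mitosis (5.26%), 19.2% of all 32851 promoters and 14.1% of those of listed genes. CCAAT was present in 34 of 50 mitotic promoters (68.0%), 6 of 19 of the others (31.6%), 37.4% of all promoters and 38.0% of those of listed genes. Both motifs stood together in 25 of the 50, against 7.52% of all promoters and 5.99% of those of listed genes. The match outside mitosis was in Kif24, a kinesin of the mother centriole that restrains cilium growth. Base composition differed too, with a median GC content of 58.2% in mitotic promoters, 63.0% in those of the other members, 60.3% in those of listed genes and 52.7% in all. These shares describe letters near the start and are no record of binding.

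Transcripts of the mitotic machinery were present in all 4 libraries and differed little between the plasmids. Summed over the 51 mitotic members, the level was 3151 and 3283 CPM in the controls and 3227 and 3358 CPM in the Chrna4 libraries. The groups overlapped, and the mean was 3217 ± 93.5 CPM in controls and 3293 ± 92.5 in Chrna4 libraries (SD, n = 2), a ratio of 1.02. Here and below CPM is the deposited value, reads per 1e+06 reads of a scaled library size. In RNA from whole cultures, fewer cells in mitosis and less of a transcript per cell cannot be told apart.

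**Figure D1:**
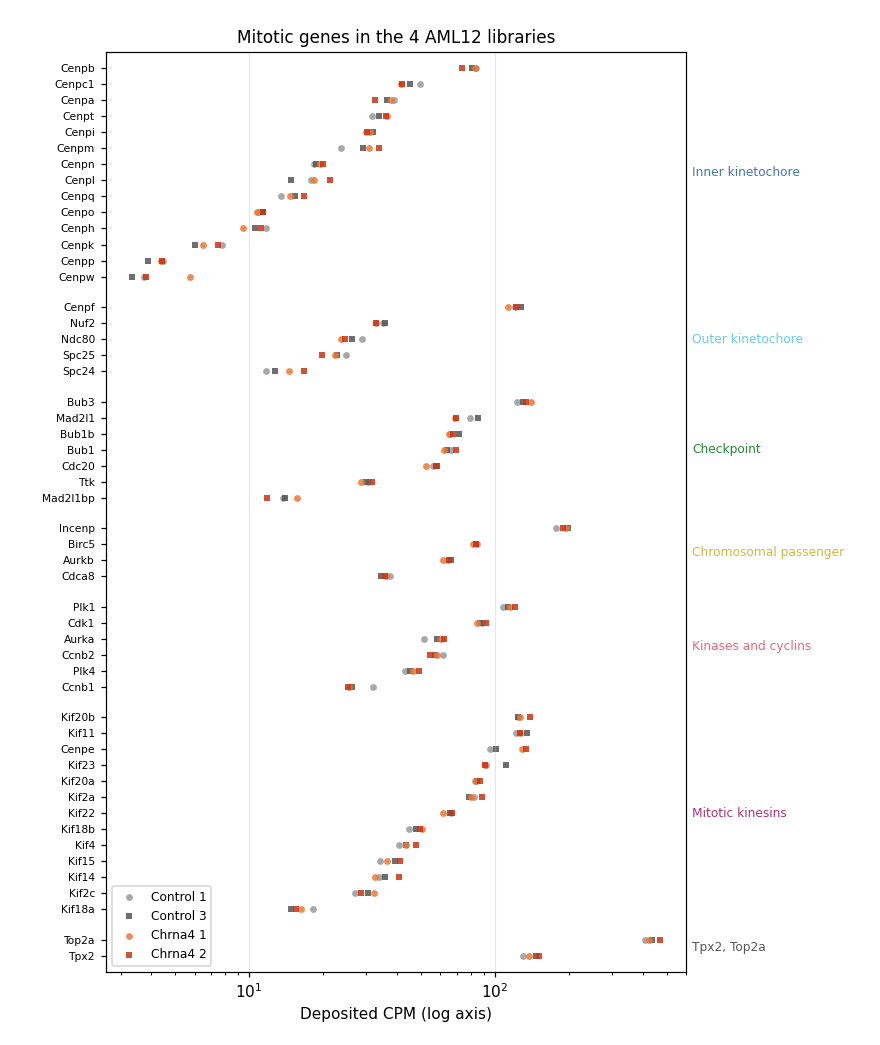
Deposited CPM (log axis) of each of the 51 mitotic members, 1 point per library, grouped by role. The 4 points of a gene lie close together beside the range between genes, from a mean of 4.15 CPM (Cenpw) to 435 CPM (Top2a); Cenpe and Mad2l1 are the members called between the groups.

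The test was limma-trend on log2(CPM + 1). Genes entered it where they averaged 1 CPM or more, 11298 in all, and a gene was called at an adjusted p under 0.05 over all of them. Of the 72 members 69 were tested, all 51 mitotic ones among them, and 4 were called, 2 higher and 2 lower. Of all tested genes, 15.9% were called, 9.26% higher and 6.66% lower, against 5.80% of the members and 3.92% of the mitotic ones. With library totals as the scaling, the split of all called genes turned from 1046 higher and 752 lower to 812 and 1179. The mitotic members called were Cenpe, which rose, and Mad2l1, which fell; Cenpj rose and Kif12 fell among the others. The same number, 4, was called by edgeR, limma-voom and DESeq2 on recovered reads, beside 1811, 1804 and 1584 of all tested genes, and in the authors' deposited table, with 16.8% of its genes.

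A single library moved these counts. The number of called members was 9 when Control 1 was left out and 13 when Control 3 was, and 3 or 2 when Chrna4 1 or Chrna4 2 was. For mitotic members the same omissions gave 4, 10, 1 and 1. Among all tested genes the share called was 25.8%, 26.6%, 9.21% and 8.21%, in that order. Without Control 3 the members gained were Aurka, Bub3, Cenpm, Kif5b, Spc24, Top2a and Tpx2, all higher, and Ccnb1 and Cenpc1, both lower. Without Control 1 they were Cenpl and Kif5b, higher, and Kif1c, Kif23 and Kif3a, lower, and without Chrna4 1 Kif21b was gained, lower. Cenpe and Kif12 were called in each of these fits.

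The 95% interval of the log2 change lay wholly within 1.5-fold in either direction for 50 of 51 mitotic members, against 83.5% of all tested genes and 89.0% of tested genes in the same range of mean CPM. The exception was Cenpw, a DNA-binding histone-fold subunit of low level, at 0.33 (interval -0.078 to 0.74). The median change of the mitotic members was 0.014 on the log2 scale, with 28 of 51 above 0, and that of all tested genes was -0.0028. With library totals, which moved the median of all genes to -0.054, it was -0.040 with 22 of 51 above 0. Without Chrna4 2 it was -0.0022, so the median had no direction that held. The median absolute change was 0.082, against 0.12 for all tested genes.

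**Figure D2:**
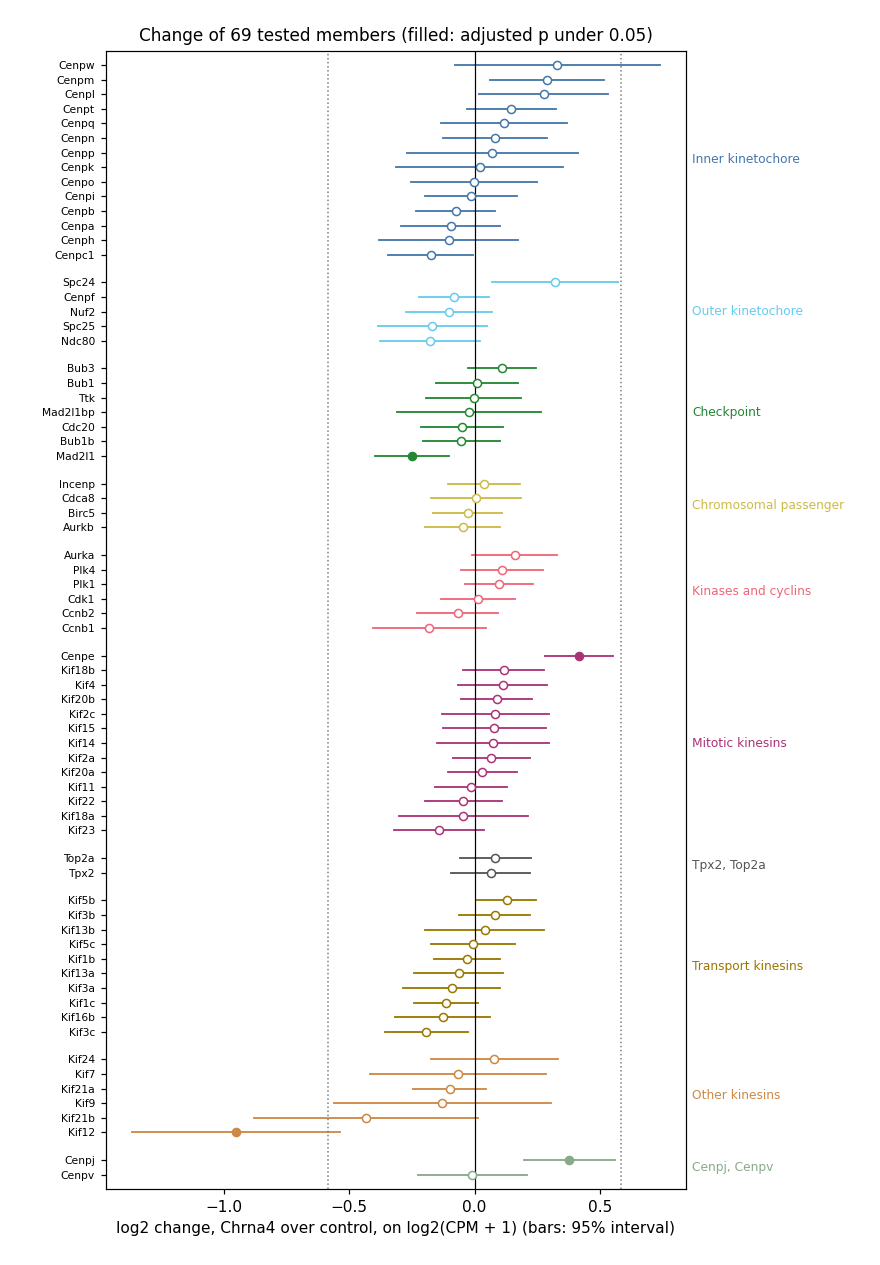
Fitted log2 change (Chrna4 over control, on log2(CPM + 1)) of the 69 tested members with its 95% interval, by role; filled points are called and dotted lines mark 1.5-fold. The 4 called members are filled, and among the mitotic members only the interval of Cenpw, which ends at 0.74, crosses a dotted line.

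Cenpe rose. It encodes the kinesin-like motor CENP-E, which sits on the kinetochore and carries chromosomes to the spindle equator (ENSMUSG00000045328; GRCm38 chromosome 3, 135212537 to 135273611, plus strand, protein-coding). The controls stood at 95.8 (Control 1) and 101 CPM (Control 3), and the Chrna4 libraries at 129 (Chrna4 1) and 134 CPM (Chrna4 2). Both Chrna4 libraries lay above both controls. The means differed by 1.34-fold (98.3 ± 3.61 against 132 ± 4.05 CPM, SD, n = 2; log2 0.42, SE 0.062, interval 0.28 to 0.55, adjusted p = 0.000683 by limma). The call held under all 12 alternatives, at log2 changes of 0.36 to 0.45. All of them reuse the same libraries, and the fits that leave one out rest on a lone library in a group. The other 12 mitotic kinesins were not called, at changes of -0.14 to 0.12.

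Those 12 include the best known spindle motors. Kif11, which pushes spindle poles apart, had 122 and 135 CPM in controls and 127 and 127 in Chrna4 libraries. Kif20b, which acts in late cytokinesis, had 125 and 125 CPM against 126 and 139. Kif23, a component of centralspindlin at the midzone, had 91.9 and 111 CPM in controls and 91.3 and 91.2 in Chrna4 libraries (log2 -0.14, interval -0.32 to 0.038). For Kif11 the Chrna4 values lay between the controls, for Kif20b both lay above them, and for Kif23 Control 1 lay close to the Chrna4 libraries and Control 3 above them. The summed level of the 13 mitotic kinesins was 864 and 911 CPM in controls and 909.8 and 958 in Chrna4 libraries, with 1 library of each group at about the same level. Kifc1, a kinesin gene outside the name rule, was not called. It had 39.1 and 39.9 CPM in controls and 44.6 and 45.7 in Chrna4 libraries (log2 0.19, interval 0.024 to 0.35, adjusted p = 0.116 by limma).

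Mad2l1 fell. Its product MAD2 is the checkpoint protein that binds and restrains CDC20 (ENSMUSG00000029910; GRCm38 chromosome 6, 66535390 to 66547220, plus strand, protein-coding). Control 1 had 79.5 CPM and Control 3 85.3, while Chrna4 1 had 68.6 and Chrna4 2 69.7. Both Chrna4 libraries lay below both controls, at 0.839 of the control mean (82.4 ± 4.12 against 69.2 ± 0.784 CPM, SD, n = 2; log2 -0.25, SE 0.067, interval -0.40 to -0.10, adjusted p = 0.0262 by limma). By limma the adjusted p was 0.199 without Chrna4 1 and 0.158 without Chrna4 2, so the call needs both.

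The other 6 checkpoint members were not called. Bub3, a subunit shared by checkpoint complexes, had 123 and 131 CPM in controls and 139.8 and 134 in Chrna4 libraries. Bub1b, the gene of BUBR1 in the complex that inhibits CDC20, had 65.9 and 71.8 against 65.2 and 67.3 CPM, and Cdc20 itself 56.3 and 58.1 against 52.7 and 57.9. The groups overlapped for Bub1b and Cdc20 and lay apart for Bub3, as they did for 57.5% of all tested genes. The checkpoint kinase genes Bub1 and Ttk were at log2 changes of 0.0099 (interval -0.15 to 0.17) and -0.0041 (interval -0.19 to 0.19).

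Cdk1 and its cyclins were not called. Cdk1 (ENSMUSG00000019942; GRCm38 chromosome 10, 69335146 to 69352938, minus strand, protein-coding), the kinase that drives entry into mitosis, had 88.5 and 86.9 CPM in controls and 84.8 and 92.4 in Chrna4 libraries, and the controls lay inside the Chrna4 pair. Its change was 0.014 on the log2 scale, with an interval of -0.13 to 0.16. The cyclin gene Ccnb2 had 61.4 and 56.9 CPM against 58.3 and 54.5, and Ccnb1 31.9 and 26.1 against 25.5 and 25.2. For Ccnb1 the Chrna4 libraries were close to Control 3, and Control 1 stood above the other 3 (log2 -0.18, interval -0.40 to 0.044, adjusted p = 0.272 by limma).

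Plk1, Aurka and Plk4 had changes above 0 that were not called. Plk1, which acts from centrosome maturation to cytokinesis, had 108 and 113 CPM in controls and 115 and 121 in Chrna4 libraries (log2 0.10, interval -0.038 to 0.23). Aurka, the spindle pole kinase, had 51.3 and 58.3 CPM against 60.6 and 61.8 (log2 0.16, interval -0.011 to 0.33, adjusted p = 0.200 by limma). For both genes the groups did not overlap, as was true of 57.5% of all tested genes. Without Control 3 Aurka was called (adjusted p = 0.00620 by limma), and over its other alternatives it was not. Plk4, the kinase of centriole duplication, was at 0.11 (interval -0.055 to 0.27).

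The chromosomal passenger complex corrects faulty attachments and guides cytokinesis, and its 4 subunit genes had log2 changes of -0.048 to 0.038. The kinase gene Aurkb had 64.4 and 66.6 CPM in controls and 61.7 and 65.0 in Chrna4 libraries. Birc5, encoding survivin, had 84.4 and 83.7 against 81.5 and 83.4 CPM, and the scaffold gene Incenp 177 and 198 against 196 and 189. The groups overlapped for Aurkb and Incenp, and for Birc5 they were less than 1 CPM apart. Top2a, the topoisomerase that untangles sister chromatids, was the member of highest CPM, with 408 and 437 CPM in controls and 425 and 470.0 in Chrna4 libraries. Tpx2, which activates Aurora A on spindle microtubules, had 131 and 146 against 138 and 151 CPM. For Top2a and Tpx2 the replicates differed by more than the group means.

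The inner and outer kinetochore roles held 19 members, and 0 were called, against 15.9% of all tested genes. The called genes Cenpe, whose product also sits on the kinetochore, and Mad2l1 were counted with the mitotic kinesins and the checkpoint instead. Cenpa, the centromeric histone H3 variant, had 38.7 and 36.3 CPM in controls and 37.7 and 32.5 in Chrna4 libraries, and Cenpb, which binds a motif in centromeric repeats, 83.9 and 80.9 against 82.9 and 73.6. Cenpc1, the platform that links the centromere to the outer kinetochore, had 49.4 and 45.02 against 41.4 and 41.8 CPM (log2 -0.18, interval -0.35 to -0.0055, adjusted p = 0.157 by limma). The 14 inner kinetochore and centromere genes had changes from -0.18 to 0.33, with 8 above 0. Cenpm and Cenpl, subunits of the constitutive centromere network, were at 0.29 and 0.28, with adjusted p = 0.0849 and 0.143 by limma. Cenpf, a large protein of the outer kinetochore, had 121 and 127 against 113 and 121 CPM.

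Within the NDC80 complex the subunits did not lean the same way. Ndc80 had 28.9 and 26.1 CPM in controls and 23.6 and 24.6 in Chrna4 libraries (log2 -0.18). Nuf2, its partner at the microtubule end, had 35.0 and 35.8 against 32.9 and 33.0 CPM (log2 -0.10), and Spc25 24.9 and 22.7 against 22.3 and 19.8 (log2 -0.17). Spc24, which pairs with Spc25 at the chromosome end, had 11.8 and 12.8 CPM against 14.5 and 16.7 (log2 0.32, interval 0.068 to 0.57, adjusted p = 0.0837 by limma). Its groups lay apart in the opposite direction to those of the other 3 subunits. None of the 4 was called, and the groups did not overlap for 57.5% of all tested genes. Per kilobase of annotated exon, the mean level was 4.23 CPM for Ndc80, 5.59 for Nuf2, 4.77 for Spc24 and 7.46 for Spc25 in the controls, and 3.72, 5.20, 6.05 and 6.61 in the Chrna4 libraries. On that scale Ndc80 was the lowest and Spc25 the highest of the 4 in both groups. The length counts all annotated exons of a gene together, 6.493 kb for Ndc80 and 3.188 kb for Spc25. The order of genes therefore depends on the annotation as well as on the reads.

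These 5 roles (inner and outer kinetochore, passenger complex, kinases with cyclins, and Tpx2 with Top2a) were put together because they held no call. That limma-trend called 0 of their 31 members therefore follows from this choice, and edgeR, DESeq2 and limma-voom called 0 as well. The roles left out are the mitotic kinesins with Cenpe and the checkpoint with Mad2l1. Over all 51 mitotic members 2 were called, against 15.9% of all tested genes, and 6 had an unadjusted p under 0.05 by limma. Of the 31, 4 had an unadjusted p under 0.05 (Cenpc1, Cenpl, Cenpm and Spc24), against 29.3% of all tested genes. The same choice bears on this count.

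Per kilobase of exon, control levels of the mitotic members ran from 0.839 CPM (Cenpw) to 50.2 (Plk1). Top2a followed at 46.9, then Incenp at 43.3 and Ccnb2 at 38.7, while Cdk1 stood at 17.8 and its other cyclin partner Ccnb1 at 6.87. On the same scale Cenpe stood at 11.4 in controls and 15.3 in Chrna4 libraries. The order therefore differs from that by CPM, in which Top2a comes first. It also depends on the length of all annotated exons together, which was 4.217 kb for Ccnb1 and 1.531 kb for Ccnb2.

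**Figure D3:**
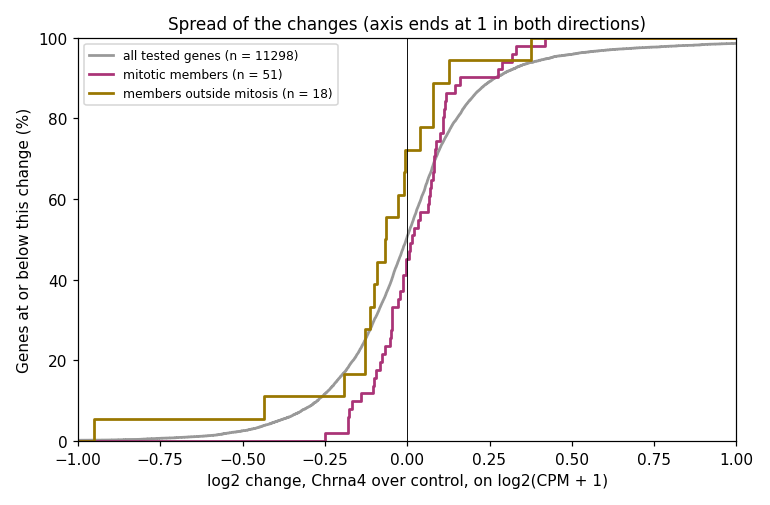
Cumulative share of genes (%) by fitted log2 change for all 11298 tested genes, 51 mitotic members and 18 tested members outside mitosis; the axis ends at 1 in both directions. The mitotic members span -0.25 to 0.42, with a median absolute change of 0.082 against 0.12 for all tested genes.

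Transport kinesins, which walk along microtubules with vesicles and organelles, included abundant motors. Kif5b, the ubiquitous conventional kinesin heavy chain, had 407 and 404 CPM in controls and 437 and 448 in Chrna4 libraries (log2 0.13, interval 0.01 to 0.24, adjusted p = 0.136 by limma). Kif1c, a vesicle motor, had 395 and 429 CPM against 387 and 374 (log2 -0.11, interval -0.24 to 0.015). Kif1b, which carries mitochondria and vesicle precursors, had 126 and 133 against 127 and 126 CPM. The 3 motors thus stood at log2 changes on both sides of 0. Of 10 tested transport kinesins limma-trend called 0, as did edgeR, DESeq2 and limma-voom, against 15.9% of all tested genes by limma-trend. An unadjusted p under 0.05 was reached by 2, Kif3c and Kif5b, against 29.3% of all tested genes. For Kif3c, a heterotrimeric kinesin subunit, 40.7% of exon bases are also exonic in another gene. The sources used here do not give the strand setting of the counting, so its level is uncertain; with library totals it was called lower. The same doubt touches the levels of Kif20a, Kif7, Kif2a, Kif4, Cenpo and Cenpp, which share 12.6% to 29.3% of exon bases with another gene. Kif5a and Kif17 received 13 to 33 and 5 to 9 reads per library and were not tested.

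Among the other kinesins Kif12 fell. Variants of the human gene are known from cholestatic liver disease (ENSMUSG00000028357; GRCm38 chromosome 4, 63165630 to 63172131, minus strand, protein-coding). Control 1 had 4.16 CPM and Control 3 6.12, against 2.18 in Chrna4 1 and 2.09 in Chrna4 2. Both Chrna4 libraries lay below both controls, and the controls differed from each other by more than the Chrna4 pair did. In the Chrna4 libraries the mean fell to 0.415 of that in controls (5.14 ± 1.39 against 2.13 ± 0.0629 CPM, SD, n = 2; log2 -0.95, SE 0.19, interval -1.37 to -0.54, adjusted p = 0.00499 by limma). This was the largest change of any tested member, in a gene with 66 to 198 reads per library. The call held in all 11 alternatives in which the gene was tested, at log2 changes of -1.27 to -0.72. Here too the fits that leave out a library rest on a lone library in a group. The summed bile duct markers given above were lower in the same libraries, and their part in the Kif12 result was not tested.

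The rest of that group was not called. Kif21a, a regulator of microtubule growth, had 66.1 and 67.6 CPM in controls and 62.7 and 61.9 in Chrna4 libraries. Kif24 had 12.5 and 14.9 against 14.2 and 14.8 CPM, and Kif7, of cilia and Hedgehog signalling, 4.43 and 4.14 against 4.45 and 3.67. Kif21b, at 4.37 and 4.73 against 4.096 and 2.31 CPM, had the widest interval of any member (-0.88 to 0.014). Its value in Chrna4 2 stood below the other 3 libraries. Kif6 had 9 and 4 reads in the controls and 0 and 2 in the Chrna4 libraries and was not tested. The median change of the 16 tested kinesins outside mitosis was -0.079, with 12 below 0, and it was -0.013 without Control 3 and -0.031 without Chrna4 1.

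Cenpj rose, although it is no kinetochore gene. It encodes a centriole protein (CPAP) that sets centriole length (ENSMUSG00000064128; GRCm38 chromosome 14, 56526761 to 56575425, minus strand, protein-coding). Its controls read 26.7 and 25.5 CPM (Control 1, Control 3) and its Chrna4 libraries 33.9 and 34.4 CPM (Chrna4 1, Chrna4 2). Both pairs were tight and did not overlap, and the means differed by 1.31-fold (26.1 ± 0.877 against 34.2 ± 0.355 CPM, SD, n = 2; log2 0.38, SE 0.083, interval 0.19 to 0.56, adjusted p = 0.00914 by limma). By limma the adjusted p was 0.0516 without Chrna4 1 and 0.0769 without Chrna4 2. Cenpv was counted outside mitosis, although its protein has been placed at the spindle midzone. It had 30.7 and 28.2 CPM in controls and 31.8 and 26.8 in Chrna4 libraries, with the controls inside the Chrna4 pair. Of the 4 called members 0 share exon bases with another annotated gene.

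Replicates of the same plasmid differed from each other for many mitotic members. The median absolute log2 difference over the 51 mitotic members was 0.1005 for the control pair and 0.0934 for the Chrna4 pair, against 0.0824 for the group means. A mean of 2 libraries varies less than a single one, so the last value is not like for like with the others. Over all tested genes the values were 0.104, 0.0702 and 0.122. Chrna4 2 was above Chrna4 1 in 35 of 51 mitotic members, by a median of 0.054, and Control 3 above Control 1 in 31 of 51, by a median of 0.046. Among the mitotic members, Cenpw and Mad2l1bp moved furthest between the Chrna4 libraries. Cenpw had 5.75 and 3.80 CPM there and Mad2l1bp, an antagonist of MAD2, 15.7 and 11.9.

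**Figure D4:**
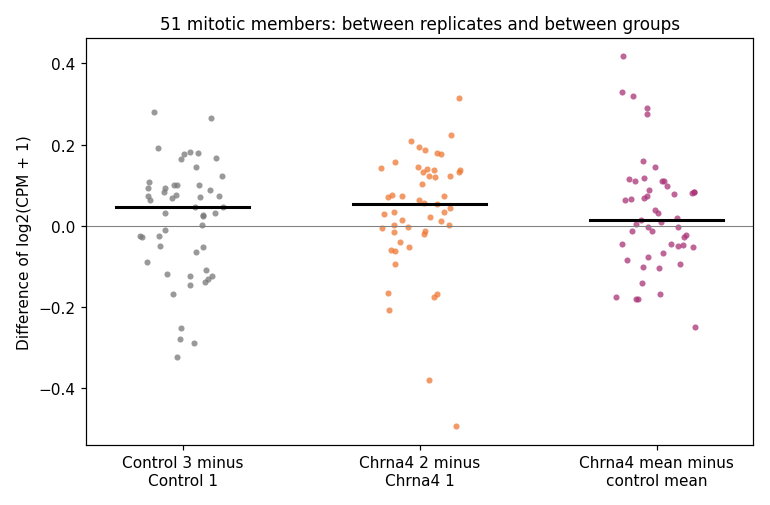
Difference of log2(CPM + 1) for each of the 51 mitotic members between the 2 controls, between the 2 Chrna4 libraries and between the group means; black bars are medians, at 0.046, 0.054 and 0.014. Cenpe, at 0.42, is the highest of the group differences.

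Genes that work with the members were read from 9 further lists of 172 names, chosen by role. Their counts are read against the 15.9% of all tested genes that were called. Of 24 other kinetochore and checkpoint genes tested, 2 rose and 0 fell (8.33% called). Hjurp, the chaperone that deposits CENP-A, had 160.1 and 177 CPM in controls and 196 and 204 in Chrna4 libraries (log2 0.25, adjusted p = 0.0209 by limma), and Pmf1, a subunit of the MIS12 complex, 37.8 and 34.5 against 44.0 and 45.9. Casc5, the gene of the outer kinetochore scaffold KNL1, was not called, at 40.2 and 38.3 CPM in controls and 42.4 and 46.4 in Chrna4 libraries (log2 0.17, adjusted p = 0.173 by limma). Without Chrna4 1 or Chrna4 2 the adjusted p of Hjurp was 0.0991 and 0.242 and that of Pmf1 0.0772 and 0.198, and with library totals Hjurp had 0.0625, all by limma.

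Of 20 genes of the anaphase-promoting complex and separase, 1 rose and 1 fell (10.0% called, against 15.9% of all tested genes). The increase was in Pttg1, which encodes securin, the inhibitor of separase, with 54.6 and 54.1 CPM in controls and 74.6 and 78.3 in Chrna4 libraries. The groups lay well apart, by 1.41-fold in the means (log2 0.48, SE 0.068, adjusted p = 0.000408 by limma), more than for any mitotic member. Anapc11, the catalytic RING subunit, fell from 57.5 ± 2.56 to 47.6 ± 2.23 CPM. Among 23 regulators of mitotic entry and exit, 3 rose and 1 fell (17.4% called), a share near that of all tested genes. Plk2, a Polo-like kinase linked to centriole duplication, rose from 230.1 ± 16.3 to 302 ± 10.6 CPM, and Mastl, the Greatwall kinase that restrains a phosphatase during mitosis, from 38.1 ± 0.478 to 50.6 ± 0.885 CPM. Nek7, a spindle-associated kinase, fell from 162 ± 2.19 to 130.3 ± 4.19 CPM. Pttg1, Plk2 and Mastl were called under all 12 alternatives, whereas by limma Anapc11 had an adjusted p of 0.0793 and 0.297 without Chrna4 1 or Chrna4 2, and Nek7 0.0899 without Chrna4 1.

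Among 29 spindle and microtubule genes 2 rose and 1 fell (10.3% called, against 15.9% of all tested genes). Gtse1, a microtubule-binding protein of G2, rose from 86.2 ± 1.85 to 105 ± 0.685 CPM and Prc1, the midzone crosslinker, from 158 ± 7.61 to 184 ± 7.34, and the tubulin-binding stathmin gene Stmn1 fell from 15.7 ± 0.378 to 11.8 ± 0.131. Of 9 cytokinesis genes 1 rose, the ESCRT-III subunit gene Chmp4b, and 0 fell (11.1% called). By limma the adjusted p without Chrna4 1 or Chrna4 2 was 0.0908 and 0.124 for Gtse1, 0.133 and 0.400 for Prc1, 0.117 and 0.158 for Stmn1 and 0.166 and 0.144 for Chmp4b. With library totals it was 0.104 for Prc1 and 0.0514 for Chmp4b, and by DESeq2 it was 0.0604 for Stmn1. The proliferation marker Mki67 was not called, with 412 and 512 CPM in controls and 464 and 494 in Chrna4 libraries. Its Chrna4 values lay inside the control pair (log2 0.059, interval -0.13 to 0.25). Its log2 change was 0.21 without Control 3, where it was called (adjusted p = 1.07e-05 by limma), and -0.097 without Control 1 (adjusted p = 0.0816 by limma), so it had no direction that held.

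The transcription factors of mitotic genes had 2 higher and 1 lower of 21 tested (14.3% called), a share near the 15.9% of all tested genes. Foxm1, an activator of late cell cycle genes, rose, with 139 and 150.3 CPM in controls and 163 and 171 in Chrna4 libraries (log2 0.21, interval 0.072 to 0.35, adjusted p = 0.0423 by limma). The pocket protein genes went opposite ways. Rbl1 (p107) rose from 63.1 ± 0.453 to 78.6 ± 0.334 CPM and Rbl2 (p130), part of the MuvB-containing repressor of quiescent cells, fell from 32.7 ± 1.32 to 24.7 ± 0.443 (adjusted p = 0.00613 and 0.00804 by limma). Without Chrna4 1 or Chrna4 2 the adjusted p by limma was 0.155 and 0.400 for Foxm1 and 0.0601 and 0.0768 for Rbl1. Rbl2 had 0.0571 without Chrna4 1, and Foxm1 0.119 with library totals. Of the 28 mitotic members with a CHR match 0 were called and the median change was 0.044, and of the 18 without one 2 were called and the median was -0.017, values given as a description.

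Condensin and cohesin genes (18 tested) and centriole duplication genes (9 tested) had 0 called by limma-trend, edgeR, DESeq2 and limma-voom, against 15.9% of all tested genes by limma-trend. An unadjusted p under 0.05 was reached by 3 of each list, 16.7% and 33.3%, against 29.3% of all tested genes. In the first list 14 of 18 log2 changes lay above 0 and 4 below, in the second 7 of 9 and 2. Of all 11298 tested genes 5562 lay above 0. The other lists ranged from 3 of 13 above 0 (kinesin and dynein partners) to 17 of 21 (transcription factors), and these splits were not tested. Rad21, the cohesin subunit that separase cuts, had 307 and 323 CPM in controls and 292 and 303 in Chrna4 libraries. Its log2 change of -0.081 was the lowest of its list. Cep192, a scaffold of the centrosome, had 82.6 and 95.8 CPM against 103 and 102. By limma Rad21 was called lower without Control 1 (adjusted p = 0.0462) and Cep192 higher without Control 3 (adjusted p = 1.28e-05). Of 13 tested kinesin and dynein partners 1 rose and 1 fell (15.4% called), a share near the 15.9% of all tested genes. Dync1h1, the dynein heavy chain gene, rose, with 688 and 738 CPM in controls and 913 and 929 in Chrna4 libraries (log2 0.37, interval 0.24 to 0.50, adjusted p = 0.000986 by limma), and the kinesin light chain gene Klc4 fell from 20.5 ± 0.855 to 14.9 ± 0.196 CPM. Dync1h1 was called under all 12 alternatives, and Klc4 in all but the fit without Chrna4 1 (adjusted p = 0.0598 by limma).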

How the data were processed

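Polyadenylated RNA of 4 AML12 libraries, 2 per plasmid, was sequenced on an Illumina instrument, per the labels' protocols. TopHat2 and HTSeq, without versions or settings, and mm10/GRCm38 are named in the submitters' processing notes. The deposited signal is a CPM value per gene and library relative to a scaled library size. In each library 100% of values were whole multiples of 1 step within 0.01 reads, so reads were recovered; a read was worth 0.0308 to 0.0325 CPM, and edgeR on those reads called 1811 genes. The authors' own comparison was deposited beside it, as log2 values (fold change and mean CPM) with raw and adjusted p-values, made with a tool that the sources used here do not name.

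Since the values are scaled, the test was limma-trend (limma 3.58.1, R 4.3.3) on log2(CPM + 1), which understates changes of low genes, with Benjamini-Hochberg adjustment over the 11298 genes of at least 1 CPM on average. The procedure was run on simulated data in which the changed genes differed by 1.5-fold or more. Smaller changes, such as those of the mitotic members, were not simulated. Intervals are 95% intervals of that fit. Its variance for a gene combines the gene's own spread (2 residual degrees of freedom) with a trend over all tested genes (9.55 prior degrees of freedom). An SE or interval is therefore not the replicate spread of that gene alone. The alternatives changed the scaling (RLE factors or library totals), the filter (none or 5 CPM), the pseudocount (0.1), the threshold (0.01), the libraries (each left out) or the tool (limma-voom, edgeR 4.0.16 and DESeq2 1.42.0 on recovered reads). Exon lengths and coordinates come from GENCODE M21, in which 98.9% of identifiers were found. Promoters come from RefSeq GRCm38.p6.

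The members named are those called and the 3 of highest CPM per role, and per further list up to 3 called genes or the 1 of highest CPM. The others complete a complex or a range and were chosen after their values were seen, as were Casc5, Mki67 and Kifc1. Members and lists were chosen with earlier results of these data known.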

Additional observations from a re-analysis of the deposited data

How the results depend on the processing

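No paired analysis was possible because the groups share only replicate number 1. Leaving out a library moved the count of called genes between 928 and 3006 (604 to 1712 higher, 324 to 1296 lower), of called members between 2 and 13, and of called mitotic members between 1 and 10. Over the same omissions the median log2 change of the mitotic members ran from -0.0022 to 0.058 and that of the kinesins outside mitosis from -0.11 to -0.013, where it was -0.031 without Chrna4 1. With library totals these medians were -0.040 and -0.13, and 1179 genes were lower. A threshold of 0.01 left 963 called genes, 670 higher and 293 lower, and 1 called mitotic member, Cenpe. Of 764 values of 64 single genes under the alternatives, 716 stayed on the same side of the threshold, 18 came under it and 30 were lost. Among the lost ones were Mad2l1 and Cenpj without either Chrna4 library. The cause was not tested, and in such fits the lone library is assumed to vary like the other group's pair. With a minimum of 5 CPM Kif12 gave no value. The intervals that reach past 1.5-fold belong to Cenpw, Kif12 and Kif21b, all of low mean CPM.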
